A study of Homo sapiens with 54 samples.

Results

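The 18 libraries described here came from OCI-Ly1 cells that expressed 1 of 3 STAT6 mutants, and they were taken 4 h or 8 h after the same short exposure to IL-4. They were 9 libraries at 4 h and 9 at 8 h, with 3 from each of the lines STAT6 D419G, STAT6 D419N, and STAT6 N421K at each time, and they were selected by genotype and time from the 54 libraries of the series. The question was how the transcriptome of STAT6 mutant cells (STAT6 MUT) differed between 4 h and 8 h. OCI-Ly1 is a B cell lymphoma line with the t(14;18) translocation, and each line stably carried Flag-tagged STAT6 under a CMV promoter in addition to the cells' own STAT6. The study reports that the STAT6 of OCI-Ly1 itself has a variant in the DNA-binding domain. All libraries of the series share this background, including those with the wild type construct. All cells received IL-4 at 10 ng/ml for 20 min, were washed, and were lysed at 10000 cells per well. The sample titles label the libraries of each group as biological replicates. The sources used here do not say how many independent transductions each line represents, so the p-values measure the spread between these libraries, which may be technical. No unstimulated libraries were analysed here. The 18 libraries of cells expressing wild type STAT6 (STAT6 WT) from the same times and treatment serve as the comparison.

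IL-4 binds a receptor on B cells whose Janus kinases phosphorylate STAT6, which then forms dimers, enters the nucleus, and binds DNA. In germinal centre B cells, the cells from which this type of lymphoma derives, IL-4 from follicular helper T cells supports survival and shapes the surface phenotype. SOCS1, a target of the pathway, feeds back on the kinases and limits the response.

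Each library is a count of transcript molecules per gene, tagged by unique molecular identifiers (UMIs). Total UMIs ranged from 175878 to 1394881 at 4 h and from 161518 to 1507682 at 8 h, with medians of 879456 and 743121. The spread covers counting error and preparation alike, and 3 libraries held fewer than 200000 UMIs (D419G at 4 h replicate 3, D419N at 8 h replicate 3, and N421K at 8 h replicate 2). The differences in total UMIs and genes detected between the times did not pass the threshold (exact permutation test within lines, two-sided, n = 9 and 9, adjusted p = 0.690 and 0.530 over 6 measures), and neither did those in the shares of UMIs on mitochondrial genes (adjusted p = 0.530, same exact test) or on the 10 most abundant genes (adjusted p = 0.441). The remaining measures, the share on ribosomal protein genes and the STAT6 level, are given below. The 4 h libraries occupied rows C and D of the plate and the 8 h libraries rows E and F, so plate row and time cannot be told apart. In bulk libraries, fewer cells of a kind and less RNA per cell cannot be told apart either.

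B cell markers were present in all 18 libraries. The summed level of 8 B cell markers was 2670 to 3304 CPM (UMI counts scaled to library size with TMM) at 4 h and 3296 to 3892 CPM at 8 h. Markers of myeloid cells summed to at most 2.55 CPM at 4 h and 2.67 CPM at 8 h, with MPO at 0 in every library. T cell markers summed to 15.3 to 35.2 CPM at 4 h and 24.5 to 40.7 CPM at 8 h, nearly all of it from TRAC, the T cell receptor alpha constant gene, and CD3G was at 0. NK cell markers stayed at or below 11.1 CPM at 4 h and 6.00 CPM at 8 h, and the red cell markers at or below 12.7 and 9.97 CPM. The markers of fibroblasts and epithelium ranged from 8.80 to 22.2 CPM at 4 h and from 3.06 to 14.1 CPM at 8 h. The 8 germinal centre markers, which include BCL6, summed to 905.5 to 1087 CPM at 4 h and to 623.1 to 848.0 CPM at 8 h, without overlap. BCL6 made up much of this sum, with means of 648.3 CPM at 4 h and 410.7 CPM at 8 h. Of the 5 germinal centre markers tested, only BCL6 was called lower. The fitted change was upward in 3 and downward in 2, with a median log2 fold change of 0.049. The 6 plasma cell markers summed to 324.0 to 394.3 CPM at 4 h and to 312.7 to 413.6 CPM at 8 h, with SDC1 at 0. The part of such shifts in the results was not tested.

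Of 9034 genes tested, 936 differed between the times at an adjusted p under 0.05 (edgeR's quasi-likelihood test with the line as covariate, Benjamini-Hochberg adjustment), which is 10.4% of them. Of these, 443 (4.9%) were higher and 493 (5.46%) lower at 8 h. Most changes were modest, with a median absolute log2 fold change of 0.42 among the called genes and 24 genes at an absolute log2 fold change of at least 1. In 914 of the 936 genes, the fitted change had one sign in all 3 lines. Because these genes were called on the same libraries with the lines pooled, this count is no independent evidence that the lines agree. The median of all tested genes was -0.00083 on the log2 scale. Folds are those of the fit and need not equal the ratio of the medians given beside them. With library totals in place of TMM scaling, the split moved to 600 higher and 403 lower. Without the 3 libraries under 200000 UMIs, 1066 genes were called, and without line N421K, which leaves 12 libraries, 220.

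The falls and the rises differed in kind. Annotated pseudogenes made up 221 of the 493 genes called lower (44.8%) and 5 of the 443 called higher, whereas protein-coding genes made up 251 and 431. Ribosomal protein pseudogenes stood out, with 117 of 232 tested called lower and none higher, at a median log2 fold change of -0.36. The reads of such copies cannot be assigned with certainty, because they are nearly identical to their parent genes. The share of UMIs on pseudogenes, a measure chosen after the calls were seen and given without a test, was 9.09% to 12.4% at 4 h (median 11.6%) and 7.03% to 11.4% at 8 h (median 9.89%). Its lowest values in each group came from the libraries with fewer than 200000 UMIs, and without them the mean difference was -1.67 percentage points instead of -2.01. In STAT6 WT cells the medians were 11.5% at 4 h and 10.8% at 8 h. The part of this shift in the pseudogene calls was not tested. A fit of protein-coding genes alone, chosen after seeing the data, called 370 genes higher and 343 lower.

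**Figure D1:**
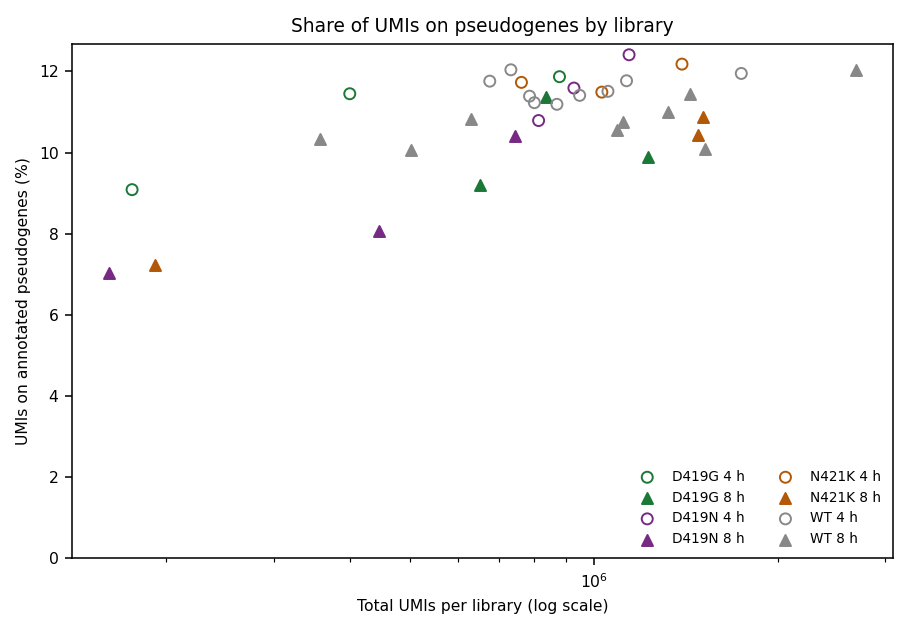
Share of UMIs on annotated pseudogenes (y axis, %) against total UMIs per library (x axis, log scale), for the mutant lines and STAT6 WT at 4 h (open circles) and 8 h (filled triangles). The 3 mutant libraries under 200000 UMIs have the lowest total UMIs and shares of 9.09%, 7.03%, and 7.24%.

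BCL6, the transcriptional repressor that maintains the germinal centre program, had the smallest p-value of all genes. Its level was 543 to 743 CPM at 4 h (median 635) and 304 to 493 CPM at 8 h (median 408), and all 9 libraries at 8 h lay below all 9 at 4 h. The fall was 1.57-fold, or -0.65 ± 0.066 as a log2 fold change (SE, adjusted p = 8.90e-09). Each line showed it, D419G at -0.64, D419N at -0.63, and N421K at -0.67. BCL6 lies on chromosome 3 from 187721377 to 187745725 on the minus strand (GRCh38, GENCODE). Of the 84 genes named by rule, 43 overlap an annotated gene on the other strand and 13 one on the same strand, and since the use of strand in counting is not given in the sources used here, their counts may be shared.

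The IL-4 and STAT6 target list held 21 genes, of which 14 passed the filter on low counts, and 4 of these fell and 2 rose. That is 42.9% called, beside 10.4% of all genes tested. The median log2 fold change of the 14 was -0.33, beside -0.00083 over all genes and -0.028 for this list in STAT6 WT. Differences of list medians between the genotypes were not tested, here or for the lists below. SOCS1, the feedback inhibitor, ranged from 70.4 to 124.6 CPM at 4 h (median 95.6) and from 43.2 to 98.9 CPM at 8 h (median 64.8). It fell 1.57-fold (log2 fold change -0.65 ± 0.115, adjusted p = 0.000248), and 6 of the 9 libraries at 8 h lay below all of those at 4 h. BATF, a partner of IRF4 in activated lymphocytes, was lower at 8 h (-0.79 ± 0.245, adjusted p = 0.0304) at a level of only 16.2 CPM at 4 h and 9.17 CPM at 8 h. XBP1, a transcription factor of secretory cells, had medians of 91.0 CPM at 4 h and 73.5 CPM at 8 h, and it fell by a fitted 0.58 on the log2 scale (SE 0.110, adjusted p = 0.000526).

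STAT6 and the IL-4 receptor chain moved the other way. STAT6 was measured at 109.5 to 155.5 CPM at 4 h (median 123.8) and at 145.9 to 209.4 CPM at 8 h (median 179.4), and 7 of 9 libraries at 8 h lay above every library at 4 h. The rise was 1.38-fold (log2 fold change 0.47 ± 0.083, adjusted p = 0.000294). Compared as a library measure, the same STAT6 values passed the threshold (exact permutation test within lines, adjusted p = 0.003 over 6 measures), which is no separate evidence. In STAT6 WT cells the median STAT6 level was 152.1 CPM at 4 h and 181.0 CPM at 8 h. Counts of STAT6 do not separate the cells' own transcript from that of the construct here. IL4R, which encodes the alpha chain of the receptor, had medians of 333.8 CPM at 4 h and 373.4 CPM at 8 h, with a fitted rise of 1.17-fold (0.22 ± 0.069, adjusted p = 0.0280).

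FCER2, IRF4, and PARP14, which the study names, did not pass the threshold in this comparison of times within STAT6 MUT, which is not a comparison of genotypes. FCER2, which encodes CD23, was at 5.76 to 33.3 CPM at 4 h (median 15.8) and at 15.6 to 30.6 CPM at 8 h (median 23.3), with overlapping groups and a log2 fold change of 0.47 ± 0.205 (adjusted p = 0.136). IRF4, a regulator of B cell activation, had a log2 fold change of -0.74 ± 0.278 (adjusted p = 0.0790), and PARP14, a cofactor of STAT6, one of -0.37 ± 0.166 (adjusted p = 0.158). CCL17, a chemokine, was not tested, with a median of 1 UMI per library at 4 h and 2 at 8 h. The depth does not allow a statement on such a gene.

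The 300 bases around the start of FCER2 in RefSeq (GRCh38.p14, chr19:7702082-7702381, minus strand) are shown because they were the only ones among the 14 tested genes of this list with the STAT6 palindrome TTCNNNNGAA, searched on both strands. This motif occurs in 6.44% of all 35116 promoter windows of this length, and capitals mark the match. A gene was counted if any window matched, whereas this share is over single windows, so 1 of 14 is not like for like. Of the 6 called genes of the list, 0 held the motif.
FCER2: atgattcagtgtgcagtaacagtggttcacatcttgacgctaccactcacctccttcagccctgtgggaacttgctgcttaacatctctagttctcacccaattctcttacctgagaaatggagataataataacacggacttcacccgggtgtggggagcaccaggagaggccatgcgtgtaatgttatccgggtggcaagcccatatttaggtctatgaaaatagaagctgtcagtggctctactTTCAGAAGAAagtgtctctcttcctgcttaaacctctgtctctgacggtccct
The match is a description of these letters only, and binding there was not tested.

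The type I interferon genes were split between the directions. Of 50 tested members, 9 rose and 9 fell, and the median log2 fold change was -0.0061. IRF9, the DNA-binding subunit of the interferon-activated complex ISGF3, was at 8.80 to 25.3 CPM at 4 h (median 21.4) and at 0 to 9.97 CPM at 8 h (median 4.90). In 8 of 9 libraries at 8 h its level lay below all libraries at 4 h, and the fitted log2 fold change was -1.90 ± 0.263 (adjusted p = 1.08e-05). Its counts were low, with a median of 18 UMIs per library at 4 h and 4 at 8 h.

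The other falls included HELZ2, a helicase coactivator, with medians of 23.3 CPM at 4 h and 14.0 CPM at 8 h and a fitted fall of 2.19-fold (-1.13 ± 0.192, adjusted p = 0.000161). TRIM21, a ubiquitin ligase that binds antibody, fell by 0.73 on the log2 scale, and DTX3L, a ubiquitin ligase partner of PARP9, by 0.61. RIGI, a sensor of viral RNA, fell by 0.65 with the lines pooled. By line, its log2 fold change was 0.021 in D419G, -0.29 in D419N, and -1.17 in N421K. APOL6, of the apolipoprotein L family, had a log2 fold change of -0.71, PLSCR1, a phospholipid scramblase, one of -0.61, PML, the organizer of a nuclear body, one of -0.47, and ADAR, which edits double-stranded RNA, one of -0.38.

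Among the rises, IFI44 had a log2 fold change of 0.70 ± 0.171 (adjusted p = 0.00572), with 2 of 9 libraries at 8 h above all at 4 h and the levels of N421K above those of the other lines at 4 h. BST2, which tethers budding virus to the cell surface, rose by 0.59, IFI35 by 0.55, and OAS2 and OAS1, which make the activator of RNase L, by 0.53 and 0.39. The GTPase MX2 rose by 0.45, SHISA5 by 0.44, ISG15, a ubiquitin-like modifier, by 0.42, and APOL3 by 0.33.

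**Figure D2:**
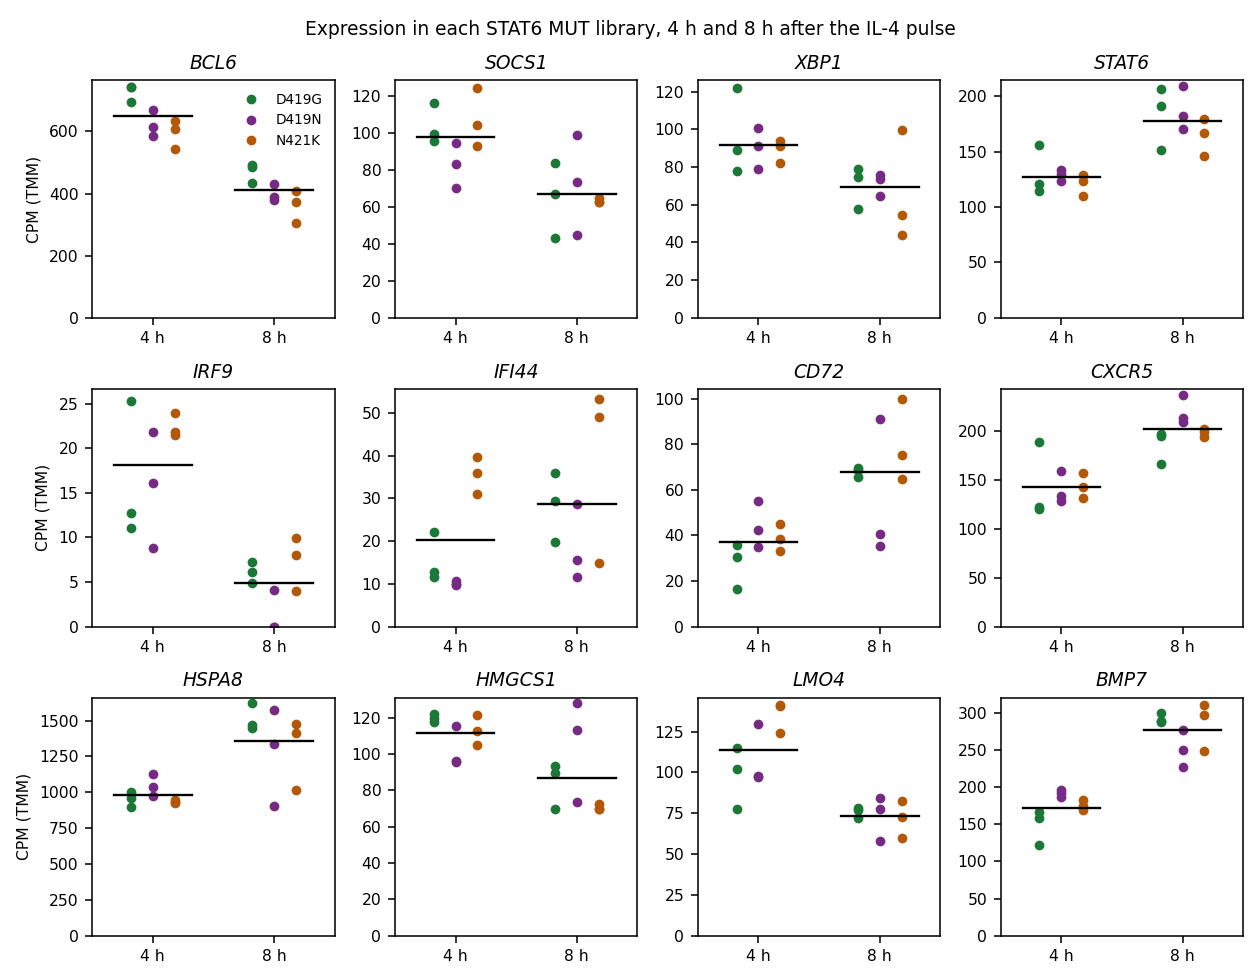
Level of 12 genes (y axis, CPM scaled by TMM, each panel from 0) in each mutant library at 4 h and 8 h (x axis), with points coloured by line and bars for the mean of the 9 libraries. BCL6 at 8 h lies at 304 to 493 CPM, below every library at 4 h, and BMP7 at 8 h lies at 227 to 311 CPM, above every library at 4 h.

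Of 25 tested genes of the B cell receptor pathway, 12 rose and none fell (48.0% called, beside 10.4% of all genes tested). The median log2 fold change was 0.22, and 0.17 in STAT6 WT. CD72, a coreceptor that dampens receptor signals, ranged from 16.7 to 55.0 CPM at 4 h (median 35.7) and from 35.6 to 100.0 CPM at 8 h (median 68.5). It showed the largest rise among the genes named by size, at 1.94-fold (0.95 ± 0.140, adjusted p = 2.74e-05), and 7 of 9 libraries at 8 h lay above all at 4 h. The inhibitory Fc receptor FCGR2B rose by 0.59, the adaptors BLNK and PIK3AP1 by 0.57 and 0.55, the kinase BLK by 0.56, and the exchange factor VAV1 by 0.43. CD79B, a signalling chain of the receptor itself, had medians of 634.6 CPM at 4 h and 886.4 CPM at 8 h, with a fitted rise of 1.35-fold (0.44 ± 0.085, adjusted p = 0.000735). Of the 8 B cell markers, 5 rose, and several of them (CD22, CD79A, CD79B, and MS4A1) also belong to the receptor list. Without line N421K, 3 members of the receptor list were called.

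Of 19 tested surface receptors for migration and activation, 6 rose and none fell (31.6% called, beside 10.4% of all genes tested). The median log2 fold change was 0.20, and 0.070 in STAT6 WT. CXCR5, which guides B cells into follicles, was at 119.8 to 188.8 CPM at 4 h (median 133.5) and at 166.7 to 236.8 CPM at 8 h (median 199.4). It rose 1.46-fold (0.54 ± 0.081, adjusted p = 2.83e-05), and 8 of 9 libraries at 8 h lay above all at 4 h. CD27, a costimulatory receptor of the TNF receptor family, rose by 0.56, and TNFRSF13C, the receptor for BAFF, by 0.52. The library N421K at 8 h replicate 2, one of those with fewer than 200000 UMIs, had 84.7 CPM of CD27, below all libraries at 4 h.

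Among 22 tested germinal centre transcription factors, 7 rose and 2 fell (40.9% called, beside 10.4% of all genes tested). The falls were BCL6 and XBP1. SPIB, an ETS factor of B cells, had medians of 143.2 CPM at 4 h and 198.0 CPM at 8 h and a fitted rise of 1.38-fold (0.47 ± 0.090, adjusted p = 0.000618), and BACH2, a repressor of plasma cell fate, rose by 0.36. In the BCL2 family, 3 of 13 tested members rose and none fell (23.1% called, beside 10.4% of all genes tested). They were BMF and BIK, which promote cell death, and BCL2, which prevents it (1.16-fold, 0.22 ± 0.067, adjusted p = 0.0289). Of 38 ribosome biogenesis genes, 7 rose and none fell (18.4% called), led by BOP1 (0.54 ± 0.102, adjusted p = 0.000485). PLEK, a phosphoprotein of blood cells, rose 1.88-fold (0.91 ± 0.146, adjusted p = 8.29e-05) and was 1 of 2 called members of the NF-kB list. That list had 14 tested members, of which 14.3% were called, near the 10.4% of all genes tested.

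Of 24 tested heat shock proteins and cochaperones, 7 rose and none fell (29.2% called, beside 10.4% of all genes tested). The median log2 fold change was 0.14, and 0.23 in STAT6 WT. HSPA8, the constitutive chaperone of the HSP70 family, was at 894 to 1130 CPM at 4 h (median 961) and at 901 to 1620 CPM at 8 h (median 1446). It rose 1.40-fold (0.48 ± 0.076, adjusted p = 5.99e-05), and 7 of 9 libraries at 8 h lay above all at 4 h. HSP90AA1, the inducible HSP90, rose 1.21-fold (0.27 ± 0.062, adjusted p = 0.00300). Without line N421K, 1 of these genes was called.

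The windows around the starts of HSPA8 (GRCh38.p14, chr11:123062087-123062386, minus strand) and HSP90AA1 (chr14:102086995-102087294, minus strand) are shown because both hold the heat shock element core GAANNTTC. Of 21 tested members of the list with a RefSeq window, 9 held it, beside 6.77% of all windows, and capitals mark each match. A gene was counted if any of its windows matched, whereas the share is over single windows, so the values are not like for like.
HSPA8: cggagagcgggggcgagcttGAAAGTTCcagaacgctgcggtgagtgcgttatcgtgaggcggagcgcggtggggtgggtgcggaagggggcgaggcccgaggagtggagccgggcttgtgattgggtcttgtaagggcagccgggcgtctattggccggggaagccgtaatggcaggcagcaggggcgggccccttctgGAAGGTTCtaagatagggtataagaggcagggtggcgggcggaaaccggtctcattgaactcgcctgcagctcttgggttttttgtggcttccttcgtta
HSP90AA1: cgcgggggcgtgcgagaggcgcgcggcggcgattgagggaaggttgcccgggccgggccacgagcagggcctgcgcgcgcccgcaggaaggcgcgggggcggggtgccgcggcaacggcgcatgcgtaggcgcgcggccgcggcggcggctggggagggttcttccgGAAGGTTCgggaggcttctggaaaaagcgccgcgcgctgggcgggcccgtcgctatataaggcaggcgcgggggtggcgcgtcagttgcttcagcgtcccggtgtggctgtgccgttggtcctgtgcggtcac

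Of 23 tested sterol synthesis genes, 9 fell and none rose (39.1% called, beside 10.4% of all genes tested). The median log2 fold change was -0.31, and -0.15 in STAT6 WT. SREBF2, the transcription factor that drives cholesterol synthesis genes, was at 152.6 to 233.2 CPM at 4 h (median 177.1) and at 112.7 to 163.5 CPM at 8 h (median 138.5). It fell 1.36-fold (-0.45 ± 0.084, adjusted p = 0.000499), and 6 of 9 libraries at 8 h lay below all at 4 h. HMGCS1, which makes the precursor of mevalonate, fell 1.37-fold (-0.45 ± 0.101, adjusted p = 0.00255), with 7 of 9 libraries at 8 h below all at 4 h and 1 above, a D419N library. HSD17B7 fell by 0.60, DHCR7, the last enzyme of cholesterol synthesis, by 0.48, and the mevalonate pathway enzymes MVD and IDI1 by 0.38 and 0.35. Of 10 tested genes of fatty acid synthesis, 3 fell (30.0% called), led by the desaturases FADS2 (-0.81 ± 0.150, adjusted p = 0.000400) and SCD (-0.41 ± 0.106, adjusted p = 0.00907). Without line N421K, 2 sterol synthesis genes were called.

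SREBF2 is shown because its window (GRCh38.p14, chr22:41832855-41833154, plus strand) was the only one with the sterol regulatory element among the windows of the 17 tested sterol synthesis genes that RefSeq lists here, and 0.154% of all windows hold it. Capitals mark the match, ATCACCCCAC, and the search allowed any base at the sixth of its positions on either strand.
SREBF2: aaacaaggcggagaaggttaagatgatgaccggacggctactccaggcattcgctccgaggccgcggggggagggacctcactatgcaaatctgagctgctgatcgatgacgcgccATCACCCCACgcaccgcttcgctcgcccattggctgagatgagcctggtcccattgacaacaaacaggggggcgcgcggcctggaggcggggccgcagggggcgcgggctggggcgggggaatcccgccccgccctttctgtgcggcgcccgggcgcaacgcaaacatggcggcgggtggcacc

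Of 19 tested glycolysis genes, 5 fell and none rose (26.3% called, beside 10.4% of all genes tested). The falls included PGAM1 (-0.62 ± 0.107, adjusted p = 0.000202) and ALDOC (-0.43 ± 0.075, adjusted p = 0.000245). The median log2 fold change of the list was -0.10, and -0.13 in STAT6 WT. Of 15 tested hypoxia genes, 4 fell and none rose (26.7% called). Their median was -0.044, and -0.23 in STAT6 WT. CA9, a carbonic anhydrase of the cell surface, was at 31.1 to 73.9 CPM at 4 h (median 43.8) and at 10.0 to 74.8 CPM at 8 h (median 27.7), and fell 2.001-fold (-1.001 ± 0.184, adjusted p = 0.000382). The highest value at 8 h came from N421K replicate 2, a library with fewer than 200000 UMIs. BNIP3 and BNIP3L, receptors for the removal of mitochondria, fell by 0.61 and 0.71, and PDK1, which holds pyruvate back from the mitochondrion, by 0.42. By line, the log2 fold change of PDK1 was -0.57 in D419G, 0.0055 in D419N, and -0.60 in N421K. Of 22 tested p53 target genes, 3 fell, namely ZMAT3 (-0.70 ± 0.127, adjusted p = 0.000368), DDB2 (-0.63 ± 0.137, adjusted p = 0.00216), and CCNG1 (-0.62 ± 0.151, adjusted p = 0.00561). These are 13.6% of the p53 list, near the 10.4% of all genes tested. The median log2 fold change of the list was 0.025, and 12 of the 22 had an upward fitted change.

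Other lists are given beside the 10.4% of all genes that were called. Of 47 tested G1/S and DNA replication genes, 1 rose (MCM3, 0.26 ± 0.079, adjusted p = 0.0249), and of 60 mitosis genes, 1 rose and 2 fell. Of 15 immediate early genes, only MYC was called (0.27 ± 0.085, adjusted p = 0.0308), and of 26 unfolded protein response genes, 1 rose (CANX) and 1 fell (XBP1). Of 27 genes of the amino acid response, 2 rose and 2 fell, the falls being SHMT2 and ATF5.

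Among cytosolic ribosomal protein genes, 20 of 82 fell and none rose (24.4% called, beside 10.4% of all genes tested), with RPL41 at -0.54 ± 0.109 (adjusted p = 0.00109). The median of these genes was -0.13, and -0.043 in STAT6 WT. The share of UMIs on these genes had medians of 14.3% at 4 h and 14.1% at 8 h, and its difference did not pass the threshold (exact permutation test, n = 9 and 9, p = 0.0258, adjusted p = 0.0773). Of 13 mitochondrially encoded genes, 3 fell and none rose (23.1% called), with MT-CO1 at -0.45 ± 0.089 (adjusted p = 0.000771).

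Fitted line by line, far fewer genes passed the threshold, with 3 libraries at each time. D419G had 9 called genes (7 higher and 2 lower, 0.0948% of 9495 tested), D419N 13 (3 and 10, 0.137%), and N421K 69 (30 and 39, 0.727%). No gene passed the threshold for a difference of its change among the lines (0.0% of 9495, edgeR's quasi-likelihood test on 2 degrees of freedom), and 362 had an unadjusted p under 0.05. DESeq2 and limma-voom called 0 genes as well. The 3 named genes with the smallest p for this difference were the pseudogenes NPM1P39 and RAD21P1 and the gene SYTL3.

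Whether the change from 4 h to 8 h was particular to the mutant lines was tested against STAT6 WT, where 439 of 9623 genes were called (4.56%), 256 higher and 183 lower. The difference between the changes passed the threshold in 4 genes (0.0416%), and 832 genes had an unadjusted p under 0.05. LMO4, a LIM-domain transcriptional regulator, was at 77.8 to 141.4 CPM at 4 h (median 115.2) and at 58.2 to 84.5 CPM at 8 h (median 76.8) in STAT6 MUT. It fell 1.56-fold in STAT6 MUT (-0.64 ± 0.095, adjusted p = 2.83e-05), whereas in STAT6 WT the log2 fold change was 0.22 ± 0.093 (adjusted p = 0.164). The difference was -0.86 ± 0.132 (adjusted p = 9.41e-05).

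BMP7, a secreted ligand of the TGF-beta family, rose more in STAT6 MUT. Its level was 122.2 to 196.5 CPM at 4 h (median 174.6) and 226.9 to 310.7 CPM at 8 h (median 287.9), with all 9 libraries at 8 h above all at 4 h. This rise of 0.68 ± 0.078 on the log2 scale (adjusted p = 1.95e-07) stood beside 0.22 ± 0.058 in STAT6 WT, a difference of 0.47 ± 0.089 (adjusted p = 0.00809). BMF rose in STAT6 MUT (0.45 ± 0.109, adjusted p = 0.00557), and its log2 fold change in STAT6 WT was -0.28 ± 0.097 (adjusted p = 0.0767), a difference of 0.74 ± 0.144 (adjusted p = 0.00809). TRABD, of the TraB domain family, rose in STAT6 MUT (0.41 ± 0.073, adjusted p = 0.000311), with -0.0035 ± 0.060 in STAT6 WT and a difference of 0.41 ± 0.088 (adjusted p = 0.0390).

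For BCL6, SOCS1, IRF9, HSPA8, and CA9, the difference from STAT6 WT did not pass the threshold, which does not show that the changes were alike. BCL6 fell in both genotypes, by 0.65 in STAT6 MUT and by 0.36 in STAT6 WT on the log2 scale, and the difference was -0.29 ± 0.083 (adjusted p = 0.262). SOCS1 had a log2 fold change of -0.16 ± 0.103 in STAT6 WT (difference -0.49 ± 0.145, adjusted p = 0.270), and IRF9 one of -0.49 ± 0.340 (difference -1.42 ± 0.454, adjusted p = 0.290). HSPA8 rose in both, by 0.48 and 0.65, with a difference of -0.15 ± 0.087 (adjusted p = 0.651). CA9 was lower at 8 h in both, at -1.001 and -1.76, with a difference of 0.76 ± 0.247 (adjusted p = 0.294).

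**Figure D3:**
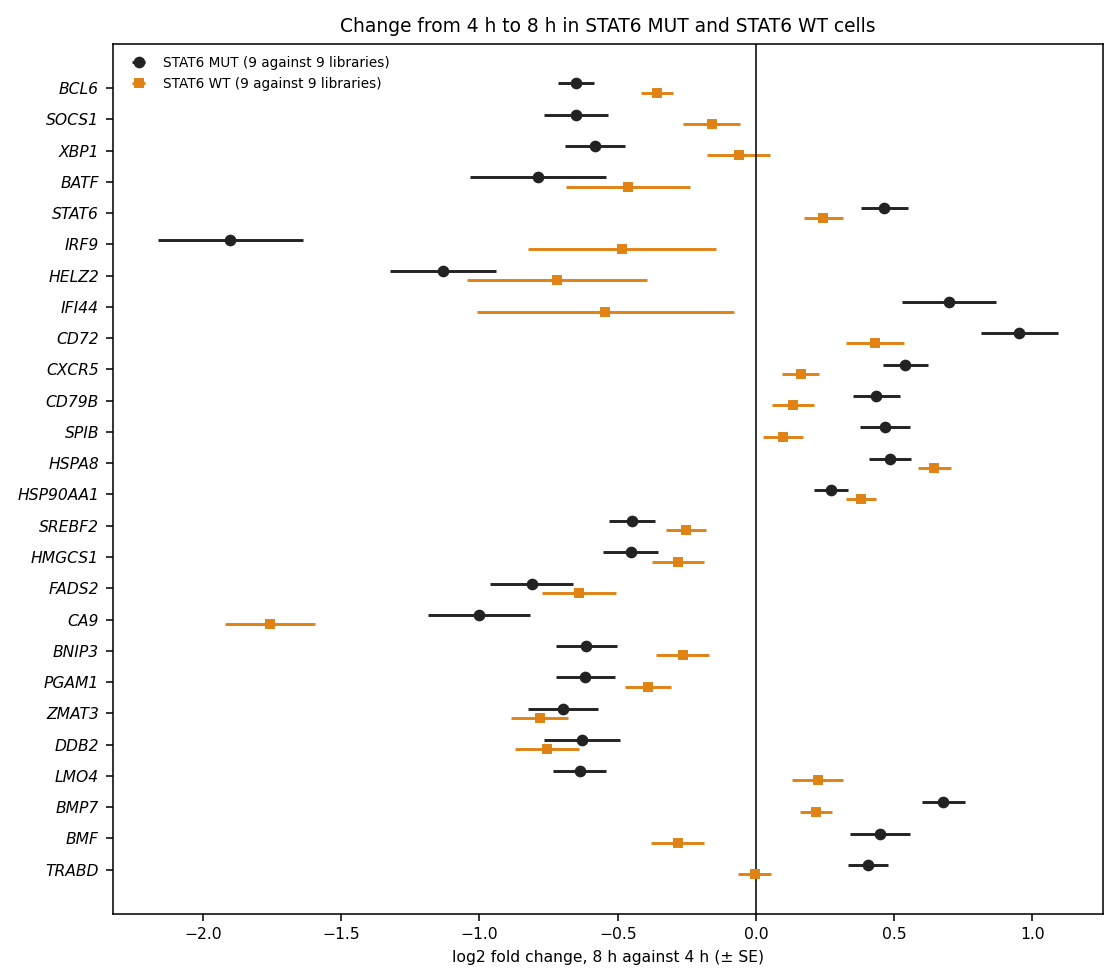
Log2 fold change at 8 h against 4 h (x axis, with SE bars) in STAT6 MUT (circles) and STAT6 WT (squares), 9 against 9 libraries each, for 26 genes (y axis). The difference between the genotypes passed the threshold for LMO4, BMP7, BMF, and TRABD, at -0.86, 0.47, 0.74, and 0.41.

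By size, the other rises were ABI3, SLC5A6, IKZF2, SASH3, SIT1, MAGEF1, ANKLE1, and AGPS, with log2 fold changes of 0.68 to 0.80. IKZF2, which encodes the zinc finger protein Helios, was at 33.0 to 62.3 CPM at 4 h (median 44.4) and at 66.0 to 100.0 CPM at 8 h (median 75.6), and all 9 libraries at 8 h lay above all at 4 h (0.76 ± 0.111, adjusted p = 2.67e-05). The largest falls included 6 pseudogenes of ribosomal proteins or mitochondrial genes, RPL21P131, RPL31P31, RPL30P4, RPS27P9, MTCO1P40, and MTCO2P22, with log2 fold changes from -1.14 to -0.72. The other falls by size were ZNF90, a zinc finger gene, RASGRP3, an activator of RAS, and the long noncoding RNA LINC01215, at -0.87, -0.73, and -0.72.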

How the data were processed

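RNA of OCI-Ly1 lines was made into prime-seq libraries, a bulk method that tags the 3′ end of transcripts with UMIs. The authors deposited UMI counts per gene and library, without normalization, filter, or pooling. The submitters' processing notes name the build hg38. For the aligner, the annotation, and whether counting used strand, nothing is stated in those sources. Of 31835 identifiers, 30959 matched a symbol, 0 lines lacked an identifier, and 0 columns were left unused. Coordinates are from GENCODE 44 on GRCh38 and promoter windows from RefSeq (GRCh38.p14).

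Models were fitted in R 4.3.3 with edgeR 4.0.16, DESeq2 1.42.0, or limma 3.58.1. Tables and plots used Python 3.11.15 with matplotlib 3.10.9. Calls came from the quasi-likelihood test of edgeR, with TMM scaling, filterByExpr, line as covariate, and Benjamini-Hochberg adjustment over all genes tested at 0.05. Single lines and the difference among lines came from a model of the 6 groups. The difference from STAT6 WT came from 36 libraries with line, time, and the interaction of genotype with time. Levels are CPM scaled by TMM over the 54 libraries. Library measures were compared by an exact permutation test within lines (8000 arrangements). Named genes were the 12 largest rises and 12 largest falls among called genes with a mean of at least 20 CPM and one sign in the 3 lines, up to 4 called members per list by size and p, 8 genes the study names, the 5 genes with the smallest p for the difference from STAT6 WT, and the 3 for the difference among lines. Other called list members were named after their values were seen. The genotypes, times, and lists were chosen with earlier results of these data known. Further lists had the following calls. Of 16 NRF2 response genes, 1 rose (PRDX1). Of 4 tested replication-dependent histone genes, 1 fell (H4C3). None were called of 4 sterol efflux, 5 MHC class I, 2 MHC class II, 5 circadian clock, and 2 metallothionein genes. The fits were tested on simulated counts. The changed genes were drawn from those with a mean of at least 20 UMIs per library. Every gene was given the same spread beyond counting error, without differences between lines. The recovery therefore does not extend to genes with lower counts or a larger spread. For 8 h against 4 h in STAT6 MUT, 97 of 100 genes with a log2 change of 1 and 53 of 100 with a log2 change of 0.5 were recovered among 9042 tested, with 6 unchanged genes called. For the difference from STAT6 WT, it was 85 and 24 of 100 among 9588. CCL22 and a further list result are not reported here.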

Additional observations from a re-analysis of the deposited data

Results flagged for a closer look

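The change from 4 h to 8 h differed between STAT6 MUT and STAT6 WT in 4 genes by the test of the difference itself. The log2 difference was -0.86 for LMO4, 0.47 for BMP7, 0.74 for BMF, and 0.41 for TRABD. LMO4 kept an adjusted p of at most 0.00861 under each alternative tried, whereas TRABD lost the threshold under 14 of 32, BMP7 under 3 (highest adjusted p = 0.0939), and BMF under 3 (highest adjusted p = 0.206). BMF was among the genes that lost it with 1 library left out, D419N at 8 h replicate 1 (0.63, adjusted p = 0.0961).

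In 20 of 180 groups of 9 mutant libraries, a single library stood apart from the others by Dixon's criterion, which chance does in about 1 group of 20. Several of these were libraries with fewer than 200000 UMIs. D419G at 4 h replicate 3 had 11.1 CPM of ZNF90, 49.98 CPM of PGAM1, 127.7 CPM of BOP1, 49.98 CPM of MTF1, 88.8 CPM of CCDC86, and 9.09% of its UMIs on pseudogenes. N421K at 8 h replicate 2 had 74.8 CPM of CA9, 84.7 CPM of CD27, 398.8 CPM of B2M, and 24.9 CPM of IRF4. D419N at 8 h replicate 3 had 81.4 CPM of RPL30P4, 244.3 CPM of MYBBP1A, and 593.2 CPM of TRABD. The other libraries that stood apart were D419G at 4 h replicate 2 with 89.2 CPM of BMF, 38.2 CPM of CRY2, and 15.3 CPM of TRAC, D419N at 4 h replicate 1 with 415.6 CPM of TRABD, D419N at 4 h replicate 3 with 2062 CPM of HSP90AA1, N421K at 4 h replicate 1 with 179.8 CPM of SCD, and D419N at 8 h replicate 1 with 73.5 CPM of SASH3.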

How the results depend on the processing

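Of 70 named genes called at 8 h against 4 h, 25 passed the threshold under every one of the alternatives tried, and 45 lost it under at least one. Of 2931 values of named genes compared, 2 changed direction, MYLIP from -0.148 to 0.198 without replicate 1 (-0.461 without replicate 3) and NPM1P39 from -0.27 to 0.037 without line D419N, and neither gene was called. Leaving out a line moved the 936 called genes to 548 (219 higher) without D419G, 513 (256 higher and 257 lower) without D419N, and 220 (94 and 126) without N421K, each with fewer libraries. Over single libraries and replicate numbers, called genes ranged from 289 to 1127, with 126 to 527 higher and 137 to 600 lower. Leaving out N421K at 4 h replicate 1 gave 615 and D419G at 4 h replicate 1 gave 620.

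Single lines were less stable. D419G moved from 9 genes to 25 with no count filter, 15 with the robust fit, 46 with all 54 libraries, 95 without libraries under 200000 UMIs, and 36 with protein-coding genes only (0 to 25 over left-out libraries). D419N moved from 13 to 133 with no count filter, 55 with DESeq2, 3 with limma-voom, 140 with the replicate block, 170 with all 54 libraries, 46 without libraries under 200000 UMIs, and 2 with protein-coding genes only (0 to 234). N421K moved from 69 to 20 with DESeq2, 264 with all 54 libraries, 184 without libraries under 200000 UMIs, and 122 with protein-coding genes only (0 to 117). The difference from STAT6 WT moved from 4 genes to 7 with no count filter, 13 with DESeq2, 8 with the robust fit, 1 (LMO4) with the replicate block, 10 with all 54 libraries, 9 without libraries under 200000 UMIs, and 9 with protein-coding genes only (1 to 10). The difference among lines ranged from 0 to 1. The cause was not tested. The protein-coding fit was chosen after seeing the data.

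Replicate numbers were not taken to pair the libraries, since the correlations of same-numbered libraries ran from -0.166 to 0.262 and only 5 of 9 were over 0.1. A hint of pairing remains, as all 3 pairs of D419G were over 0.1 and 6 of 9 libraries at 4 h correlated best with the library of their own number at 8 h. With the replicate block, 850 genes were called at 8 h against 4 h (370 higher and 480 lower), 775 of them shared with the 936, and 67 of the 70 named genes passed. Depth limited genes at a few UMIs per library, such as CCL17 and IRF9.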
